A study of Mus musculus with 12 samples.

Results

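The genes that mark mast cells were followed in RNA-seq of mouse scars. They were 9 genes chosen by name: the granule proteases Cma1, Mcpt4, Tpsb2, Tpsab1 and Cpa3, the enzyme Hdc, and the receptor genes Kit, Ms4a2 and Fcer1a. All 9 were among the 35976 genes listed in the count files, and all 9 remained among the 18853 genes kept for testing after low counts were removed with edgeR. The study asked how deletion of Tem1 (Cd248, endosialin) changes scars that form under tension. Male mice aged 8 to 12 weeks received a wound of 1.5 cm in the back skin, and an expansion device was fixed over it on day 6. In the traction groups the device was lengthened by 1 mm per day to 8 mm in total, and in the sham groups the device was worn without lengthening. Tem1WT/WT mice carried the intact gene. In Tem1lacZ/lacZ mice, backcrossed to C57BL/6J, the lacZ reporter took the place of the only Tem1 exon in every cell of the body, so that the deletion was not limited to 1 cell type. The traction model itself was set up in C57BL/6J mice. Each of the 4 groups (Tem1WT/WT sham, Tem1lacZ/lacZ sham, Tem1WT/WT traction and Tem1lacZ/lacZ traction) held 3 mice, with 1 library of stranded poly(A) RNA from part of the scar of each mouse.

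Mast cells are tissue-resident immune cells that mature from bone marrow progenitors in the skin and other tissues under stem cell factor, the ligand of the receptor tyrosine kinase Kit. Their granules store proteases, proteoglycans and histamine, which are released when antigen crosslinks IgE on the high-affinity receptor FcεRI or when other receptors such as Mrgprb2 are engaged. Mouse skin mast cells are of the connective tissue type, marked by the chymases Cma1 and Mcpt4, the tryptase Tpsb2 and the carboxypeptidase Cpa3, whereas mucosal mast cells carry Mcpt1 and Mcpt2.

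Library totals lay between 41536788 and 64644293 counts, and Cd248 had 3883 to 16413 counts in the Tem1WT/WT libraries and 0 to 13 in the Tem1lacZ/lacZ libraries, as their labels state. Levels below are CPM, counts set relative to library size after TMM scaling, and log2 fold changes come from edgeR's quasi-likelihood test in 1 model of all 12 libraries. A gene is called where its Benjamini-Hochberg adjusted p over the 18853 genes is under 0.05. Replicate 1 of the Tem1WT/WT traction group stood apart from the other libraries: the summed level of 14 neutrophil genes without Hdc was 8665 CPM there and 139 to 841 CPM in the 11 others. Results for traction in Tem1WT/WT mice are therefore also given without it. In bulk tissue, a lower level can come from fewer mast cells or from less RNA in each, and these cannot be told apart here.

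Compared per kilobase of exon, the connective tissue proteases had the highest medians in these scars. The median over the 12 libraries was 48.6 CPM per kb for Mcpt4, 36.5 for Cpa3, 30.7 for Cma1 and 18.1 for Tpsb2. The receptor genes and Hdc were lower, with medians of 3.69 CPM per kb for Fcer1a, 2.38 for Kit, 1.95 for Hdc and 1.2 for Ms4a2. In Tem1WT/WT traction replicate 1, however, Hdc stood at 158 CPM per kb, above every protease in that library. Tpsab1 was the lowest, with a median of 0.157 CPM per kb. Neighbours in this order overlapped in their ranges over the libraries, as with Mcpt4 from 29.1 to 75.3 CPM per kb and Cpa3 from 14.8 to 61.7. The exception was the step from Tpsb2, with a range of 12.03 to 37.5, to Fcer1a, with a range of 1.96 to 6.94. Within each of the 12 libraries, however, Mcpt4 was above Cpa3, most closely at 48.6 against 46.0 in Tem1lacZ/lacZ traction replicate 1. Cma1 was likewise above Tpsb2 in each library, whereas Cpa3 was below Cma1 in replicates 1 and 3 of Tem1WT/WT traction. The mucosal protease genes were close to absent outside 1 library. Mcpt1 reached 4.47 CPM in Tem1WT/WT traction replicate 1 and at most 0.660 CPM in the others, and Mcpt2 reached 6.14 CPM there and at most 0.698 CPM in the others.

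**Figure D1:**
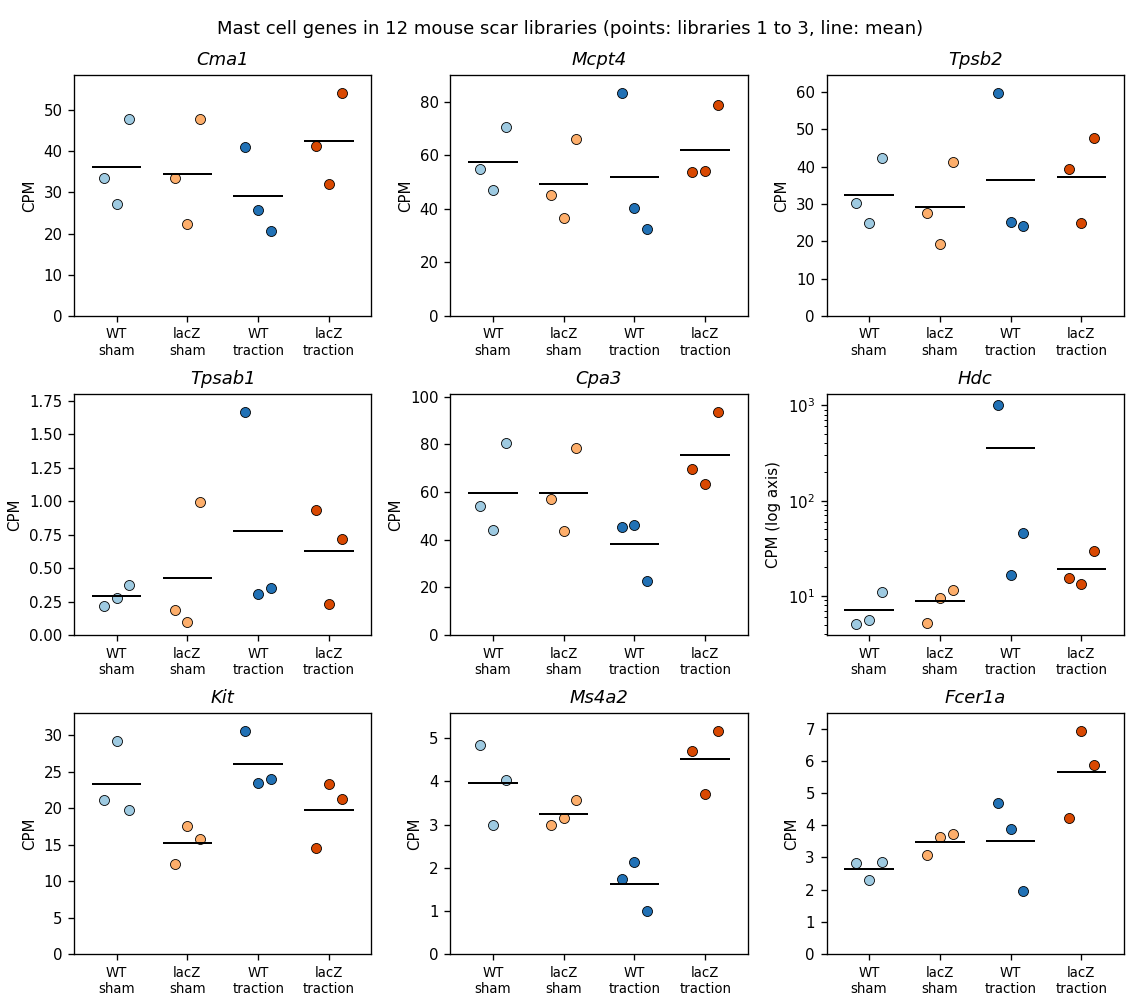
Levels of the 9 mast cell genes in CPM (vertical axes, logarithmic for Hdc and starting at 0 for the others) in the 4 groups of 3 libraries; each point is a library, placed from left to right as replicates 1 to 3, and each line is the group mean. Ms4a2 lies between 1.01 and 2.14 CPM in Tem1WT/WT traction and at 2.99 CPM or above elsewhere, and Hdc reaches 1009 CPM in replicate 1 of that group.

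Promoter sequence was examined because the proteases, Ms4a2 and Hdc did not share 1 pattern. The 250 bases before the RefSeq transcript start (GRCm38.p6) were available for 7 members, without Tpsb2 and Tpsab1. For Kit 2 entries were listed and only the first was used. For Hdc the stretch lies inside the gene, which reaches position 126624025 on the minus strand. It precedes an internal transcript start, and the bases before the outer end of Hdc were not searched. The stretches of Ms4a2, Cpa3 and Fcer1a lie partly inside their genes, which reach positions 11623790, 20242209 and 173227232 on the minus strand. The letters AGATAA and TGATAA, in which GATA factors such as the mast cell regulator Gata2 can bind, were searched on both strands. They were found in Mcpt4 (1 match), Cpa3 (1), Ms4a2 (3) and Fcer1a (1), and not in Cma1, Hdc or Kit. Of 32851 mouse promoters of this length, 16.6% hold either. Promoters of 4 members are printed 5′ to 3′ on the strand of the gene, with matches in capitals (TTATCT is AGATAA on the other strand): Mcpt4 (chr14:56062311-56062560, minus strand) as a chymase gene, Cpa3 (chr3:20242182-20242431, minus strand) as the protease whose share was low in 2 traction libraries, Ms4a2 (chr19:11623720-11623969, minus strand) as the member that was lower with traction, and Hdc (chr2:126618679-126618928, minus strand) as the member that was higher. A match is a string of letters and not evidence of binding.
Mcpt4: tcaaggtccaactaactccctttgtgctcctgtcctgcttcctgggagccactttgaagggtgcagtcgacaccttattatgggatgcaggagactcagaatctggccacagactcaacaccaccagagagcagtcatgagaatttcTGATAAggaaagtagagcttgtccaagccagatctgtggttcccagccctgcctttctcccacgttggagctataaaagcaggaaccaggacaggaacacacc
Cpa3: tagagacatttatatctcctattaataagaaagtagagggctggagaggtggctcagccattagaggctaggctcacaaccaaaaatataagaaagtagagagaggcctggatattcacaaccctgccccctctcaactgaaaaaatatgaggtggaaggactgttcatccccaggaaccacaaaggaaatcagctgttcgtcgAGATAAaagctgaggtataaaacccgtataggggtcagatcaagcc
Ms4a2: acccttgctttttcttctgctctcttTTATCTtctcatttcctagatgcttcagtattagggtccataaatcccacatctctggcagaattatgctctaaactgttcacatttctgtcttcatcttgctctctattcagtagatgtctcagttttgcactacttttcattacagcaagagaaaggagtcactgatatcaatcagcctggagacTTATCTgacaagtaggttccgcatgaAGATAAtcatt
Hdc: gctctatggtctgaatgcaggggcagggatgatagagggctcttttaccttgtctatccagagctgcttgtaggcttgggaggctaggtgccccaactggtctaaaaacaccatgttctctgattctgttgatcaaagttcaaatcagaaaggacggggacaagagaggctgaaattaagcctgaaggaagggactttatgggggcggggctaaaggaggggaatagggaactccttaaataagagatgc

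In the printed promoters the match began 103 bases before the transcript start in Mcpt4 and 46 bases before it in Cpa3. The 3 matches of Ms4a2 began 224, 37 and 11 bases before the start. Those at 37 and 11 bases lie inside the gene as listed, and that at 224 bases lies before its outer end. The letters TATAAA stood 32 bases before the start in Mcpt4 and 31 bases before it in Cpa3, where a further match lay on the other strand 242 bases before the start. Fcer1a held them 125 bases before its start, and 12.4% of all promoters hold them. CACGTG and CATGTG, letters bound by Mitf among other factors, were also searched on both strands, and 17.6% of promoters hold either. Among the members, CATGTG was found in Fcer1a, 208 bases before the start, and neither was found in the others.

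Among the proteases, the chymase and tryptase genes did not differ detectably between any of the 4 groups. Cma1 (chromosome 14, 55941451 to 55944675) encodes mast cell protease 5. Its level was 33.4, 27.3 and 48.0 CPM in Tem1WT/WT sham, 33.4, 22.4 and 47.8 in Tem1lacZ/lacZ sham, 41.0, 25.9 and 20.7 in Tem1WT/WT traction and 41.4, 32.0 and 54.3 in Tem1lacZ/lacZ traction (replicates 1 to 3 in each). The libraries of all 4 groups overlapped. Of the 50-base windows of its exons, 5.38% occur in another gene as well, Gm48934, and reads from these could be counted for either. With traction, its log2 fold change was −0.31 with a standard error (SE) of 0.34 and an adjusted p of 0.563 in Tem1WT/WT mice and 0.30 (SE 0.34, adjusted p = 0.821) in Tem1lacZ/lacZ mice from edgeR's quasi-likelihood test.

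Mcpt4 (chromosome 14, 56059744 to 56062310) encodes the chymotrypsin-like protease of connective tissue mast cells. Its level was 55.0, 47.2 and 70.5 CPM in Tem1WT/WT sham, 45.1, 36.5 and 66.1 in Tem1lacZ/lacZ sham, 83.4, 40.2 and 32.3 in Tem1WT/WT traction and 53.8, 54.0 and 78.6 in Tem1lacZ/lacZ traction. The highest and the lowest of these 12 values both came from Tem1WT/WT mice with traction. Mcpt4 shares 5.48% of its 50-base windows with its relatives Cma2 and Mcpt9. The log2 fold change with traction was −0.15 (SE 0.35, adjusted p = 0.805) in Tem1WT/WT mice and 0.34 (SE 0.35, adjusted p = 0.80) in Tem1lacZ/lacZ mice (edgeR).

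Tpsb2 (chromosome 17, 25366308 to 25368096) encodes the tryptase stored with heparin in the granule. It stood at 30.3, 25.0 and 42.2 CPM in Tem1WT/WT sham, 27.5, 19.2 and 41.1 in Tem1lacZ/lacZ sham, 59.8, 25.0 and 24.2 in Tem1WT/WT traction and 39.3, 24.8 and 47.6 in Tem1lacZ/lacZ traction. Replicate 1 of the Tem1WT/WT traction group was the highest library, and the other 2 of that group were among the lower ones. With traction in Tem1WT/WT mice its log2 fold change was 0.16 (SE 0.40, adjusted p = 0.819 in edgeR), and it was −0.42 without replicate 1 (adjusted p = 0.454). For Tem1lacZ/lacZ mice it was 0.35 (SE 0.40, adjusted p = 0.825).

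Tpsab1 (chromosome 17, 25343245 to 25345562) is a second gene of the tryptase family. The RefSeq table of the C57BL/6J genome, the strain of this model, lists it as a transcribed pseudogene and GENCODE vM21 as protein coding. Whether its RNA yields a tryptase in these mice was not tested. It had 4 to 70 counts per library. The level was between 0.217 and 0.377 CPM in Tem1WT/WT sham, between 0.0949 and 0.989 in Tem1lacZ/lacZ sham, between 0.309 and 1.67 in Tem1WT/WT traction and between 0.229 and 0.936 in Tem1lacZ/lacZ traction. At this depth no difference was detectable, with log2 fold changes for traction of 1.40 (SE 0.90, adjusted p = 0.309 in edgeR) and 0.54 (SE 0.89, adjusted p = 0.881) in Tem1WT/WT and Tem1lacZ/lacZ mice. The first rested on replicate 1 of Tem1WT/WT traction, at 1.67 CPM against 0.309 and 0.349 in the other 2 of that group, and was 0.16 without it (adjusted p = 0.927).

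Cpa3 (chromosome 3, 20215616 to 20242209) encodes carboxypeptidase A3, which trims peptides in the granule. Its level was 54.0, 44.0 and 80.3 CPM in Tem1WT/WT sham, 56.9, 43.5 and 78.3 in Tem1lacZ/lacZ sham, 45.3, 46.3 and 22.5 in Tem1WT/WT traction and 69.8, 63.2 and 93.6 in Tem1lacZ/lacZ traction. The 3 Tem1lacZ/lacZ libraries with traction lay above all 3 Tem1WT/WT libraries with traction. The group mean was 38.0 ± 13.5 CPM (SD, n = 3) in Tem1WT/WT traction and 75.5 ± 16.0 CPM (SD, n = 3) in Tem1lacZ/lacZ traction. The log2 fold change between these groups was 0.99 (SE 0.33, adjusted p = 0.111 in edgeR's quasi-likelihood test), which is not called. With traction it was −0.64 (SE 0.32, adjusted p = 0.198) in Tem1WT/WT mice and 0.34 (SE 0.32, adjusted p = 0.780) in Tem1lacZ/lacZ mice.

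The proteases were also set against each other within each library, in ratios chosen after their values were seen. Cpa3 made up 19.7%, 33.7% and 22.6% of the summed CPM of Cma1, Mcpt4, Tpsb2 and Cpa3 in the 3 Tem1WT/WT libraries with traction. In the 9 other libraries its share was between 30.7% and 36.3%, so that replicates 1 and 3 of the Tem1WT/WT traction group were the lowest and replicate 2 was within the range of the others. Cma1 made up 17.9% to 20.8% in all 12 libraries. Tpsb2 took 26.1% and 24.2% in replicates 1 and 3 of Tem1WT/WT traction and 14.3% to 19.3% in the 10 others. These shares describe the libraries and were not tested.

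**Figure D2:**
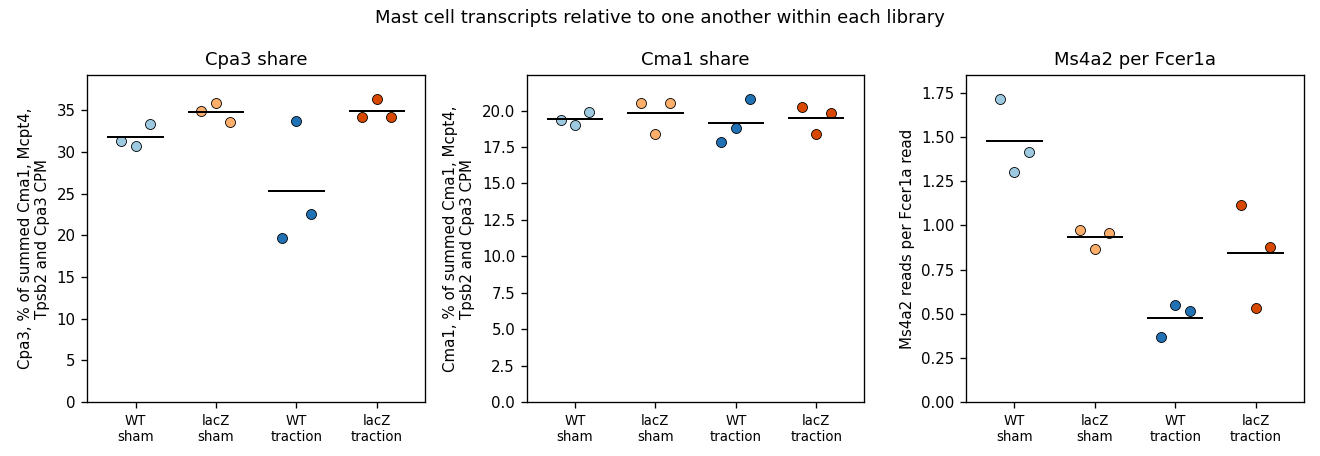
Share of Cpa3 (left) and of Cma1 (middle) in the summed CPM of 4 proteases, in percent, and reads of Ms4a2 per read of Fcer1a (right), for each library (points, replicates 1 to 3 from left to right) with the group mean (line). The Cpa3 share is 19.7% and 22.6% in 2 of the Tem1WT/WT traction libraries and at least 30.7% in the other 10, while the Cma1 share stays between 17.9% and 20.8%.

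Hdc, which encodes the histidine decarboxylase that makes histamine (chromosome 2, 126593659 to 126624025), rose with traction in Tem1WT/WT mice. Its level was 5.08, 5.57 and 10.99 CPM in Tem1WT/WT sham and 1009, 16.6 and 45.3 CPM in Tem1WT/WT traction. The groups did not overlap, and replicate 1 with traction stood far above every other library. The group mean went from 7.21 ± 3.28 CPM (SD, n = 3) to 357 ± 565 CPM (SD, n = 3), and the log2 fold change was 5.63 (SE 1.33, adjusted p = 0.0353 in edgeR's quasi-likelihood test). Without replicate 1 of the traction group the log2 fold change was 2.08 (SE 0.52) and no longer called (adjusted p = 0.0554).

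Hdc in Tem1lacZ/lacZ mice was 5.16, 9.49 and 11.7 CPM in sham and 15.3, 13.3 and 29.5 CPM with traction. These groups did not overlap either, and the log2 fold change was 1.14 (SE 1.11, adjusted p = 0.786 in edgeR). Averaged over both genotypes, Hdc was higher in all 6 libraries with traction than in all 6 sham libraries, which held for 0.859% of genes. The averaged log2 fold change was 3.38 (SE 0.85, adjusted p = 0.0382), where 9.73% of genes were called and 6.5% were called higher. Without replicate 1 of Tem1WT/WT traction it was 1.63 and still called (adjusted p = 0.0292). The call was lost without any 1 of the 6 sham libraries or of Tem1lacZ/lacZ traction replicates 2 and 3, with log2 fold changes of 3.16 to 3.61 and adjusted p from 0.0599 to 0.0990. In these 8 fits 0 to 1018 genes of the whole series were called, against 1835 with all libraries. Hdc was the only member called in this comparison.

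Hdc is also expressed by neutrophils and basophils, and genes of neutrophils correlated with it over the 12 libraries. The summed level of the 14 neutrophil genes was 139 to 149 CPM in Tem1WT/WT sham, 240 to 273 in Tem1lacZ/lacZ sham, 8665, 841 and 485 in Tem1WT/WT traction and 315 to 606 in Tem1lacZ/lacZ traction. Replicate 1 of Tem1WT/WT traction was highest in both this sum and Hdc. In replicates 2 and 3 of that group, with sums of 841 and 485 CPM, Hdc was 16.6 and 45.3 CPM. Replicate 3 of Tem1lacZ/lacZ traction had the lowest sum of its group, 315 CPM, and the highest Hdc, 29.5 CPM. Of 13 neutrophil genes tested, Hdc among them, 8 rose with traction in Tem1WT/WT mice and 0 fell, where 5.61% of all genes were called higher. Hdc itself is 1 of these 8. Without replicate 1 of the traction group 3 rose, where 1.86% of all genes were called. Over the 12 libraries, Pearson's r between Hdc and 12 of the other genes on log2 CPM was 0.478 to 0.917 with a median of 0.822. Between Hdc and the other members r ranged from −0.52 for Ms4a2 and −0.23 for Cpa3 to 0.582 for Tpsb2 and 0.678 for Tpsab1. The 2 ranges overlapped. The 8 genes most like Hdc by r, from Plaur at 0.975 to Tgif1 at 0.962, were neither members nor in the neutrophil list. Of 7 basophil genes tested, 1 (Il3ra) rose with traction in Tem1WT/WT mice, beside the same 5.61% of all genes. The summed level of the basophil list is not given because Basp1, which other cells express, makes up most of it. Of the basophil proteases, Mcpt8 was 1.76 CPM in Tem1WT/WT traction replicate 1 and 0.0191 to 0.591 CPM elsewhere, and Prss34 had at most 8 counts in a library. These correlations describe libraries that share groups, were not computed without replicate 1 of Tem1WT/WT traction and were not tested. The part of neutrophils or basophils in the level of Hdc was not tested.

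**Figure D3:**
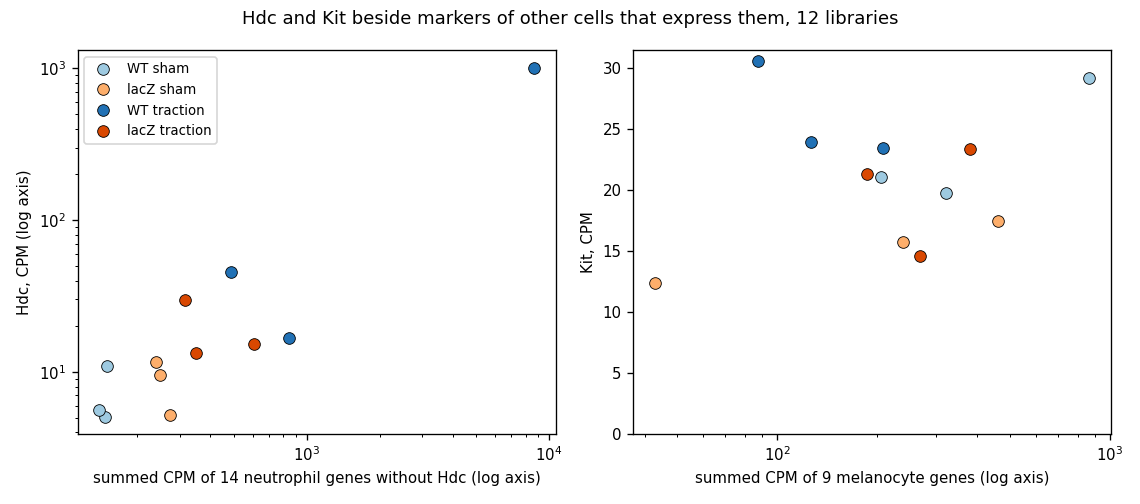
Left, Hdc in CPM against the summed CPM of 14 neutrophil genes without Hdc, both on logarithmic axes; right, Kit in CPM (axis from 0) against the summed CPM of 9 melanocyte genes on a logarithmic axis. Each point is 1 of the 12 libraries, coloured by group. Replicate 1 of Tem1WT/WT traction is the highest on both axes at left, with 1009 CPM of Hdc and 8665 CPM of neutrophil genes, and at right Kit lies between 12.4 and 30.5 CPM over melanocyte sums of 43.0 to 869 CPM.

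The receptor genes did not share 1 pattern. Ms4a2 (chromosome 19, 11615517 to 11623790), which encodes the signal-amplifying β chain of FcεRI, fell with traction in Tem1WT/WT mice. Its level was 4.84, 2.99 and 4.03 CPM in Tem1WT/WT sham and 1.74, 2.14 and 1.01 CPM in Tem1WT/WT traction, from 49 to 246 counts. Ms4a2 shares 2.1% of its 50-base windows with Ms4a4b, and reads from these could be counted for either. All 3 libraries with traction lay below all 3 of sham. The group mean was 3.95 ± 0.93 CPM (SD, n = 3) in sham and 1.63 ± 0.58 CPM (SD, n = 3) with traction, 2.43-fold lower, with a log2 value of −1.28 (SE 0.31, adjusted p = 0.0355 in edgeR). Without replicate 1 of the traction group it was −1.34 (adjusted p = 0.0629).

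Ms4a2 in Tem1lacZ/lacZ mice was 3.00, 3.16 and 3.57 CPM in sham and 4.71, 3.70 and 5.17 CPM with traction. Here all 3 libraries with traction lay above all 3 of sham, with a log2 fold change of 0.48 (SE 0.30, adjusted p = 0.670 in edgeR), which is not called. With traction, Ms4a2 was higher in every Tem1lacZ/lacZ library than in every Tem1WT/WT library. That log2 fold change was 1.47 (SE 0.31, adjusted p = 0.0834 in edgeR), and DESeq2's Wald test gave an adjusted p of 0.00033.

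Fcer1a (chromosome 1, 173221269 to 173227232) encodes the α chain of the same receptor, which binds IgE. It was 2.82, 2.29 and 2.85 CPM in Tem1WT/WT sham, 3.07, 3.63 and 3.73 in Tem1lacZ/lacZ sham, 4.69, 3.89 and 1.95 in Tem1WT/WT traction and 4.21, 6.92 and 5.86 in Tem1lacZ/lacZ traction. The lowest library was replicate 3 of Tem1WT/WT traction, while the other 2 of that group lay above every sham library. In Tem1lacZ/lacZ mice all 3 libraries with traction were above those of sham, and the log2 fold change was 0.70 (SE 0.32, adjusted p = 0.614 in edgeR). In Tem1WT/WT mice it was 0.40 (SE 0.32, adjusted p = 0.412).

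The third chain, γ, is encoded by Fcer1g, which macrophages and neutrophils also express. Fcer1g was 49.3, 38.5 and 59.7 CPM in Tem1WT/WT sham and 217, 72.6 and 64.2 CPM in Tem1WT/WT traction, with a log2 fold change of 1.26 (SE 0.42, adjusted p = 0.0740 in edgeR). It was 0.46 (adjusted p = 0.263) without replicate 1 of the traction group. Within the libraries, the number of Ms4a2 reads per Fcer1a read was 1.72, 1.30 and 1.41 in Tem1WT/WT sham and 0.371, 0.551 and 0.516 in Tem1WT/WT traction. It was 0.869 to 0.977 in Tem1lacZ/lacZ sham and 1.12, 0.534 and 0.881 in Tem1lacZ/lacZ traction. The ratio was thus highest in Tem1WT/WT sham, without overlap with the other groups, and replicate 2 of Tem1lacZ/lacZ traction lay within the range of Tem1WT/WT traction. It was chosen after the values were seen and has no test.

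Kit (chromosome 5, 75574987 to 75656722), the stem cell factor receptor on which mast cells depend, had values in the Tem1lacZ/lacZ libraries that lay below those of the Tem1WT/WT libraries within both treatments, without a call by edgeR. It was 21.1, 29.2 and 19.8 CPM in Tem1WT/WT sham against 12.4, 17.5 and 15.7 in Tem1lacZ/lacZ sham, and 30.5, 23.5 and 23.9 in Tem1WT/WT traction against 14.6, 23.4 and 21.3 in Tem1lacZ/lacZ traction. The genotypes did not overlap within either treatment, by the narrow gap between 23.5 and 23.4 CPM with traction. The log2 fold change between genotypes was −0.62 (SE 0.22, adjusted p = 0.409 in edgeR) in sham, −0.40 (SE 0.22, adjusted p = 0.280) with traction and −0.51 (SE 0.16, adjusted p = 0.0828) averaged over both. None of these is called by edgeR, and DESeq2's Wald test called the average (adjusted p = 0.0290).

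Melanocytes also carry Kit. The summed level of 9 melanocyte genes was 206 to 869 CPM in Tem1WT/WT sham, 43.0 to 461 in Tem1lacZ/lacZ sham, 87.7 to 208 in Tem1WT/WT traction and 187 to 381 in Tem1lacZ/lacZ traction. Over the 12 libraries r between Kit and these genes was 0.0151 to 0.593, with a median of 0.318. All 9 were lower in Tem1lacZ/lacZ than in Tem1WT/WT sham by their estimates, with 0 called by edgeR and 1 at an unadjusted p under 0.05, and all 9 were higher in Tem1lacZ/lacZ than in Tem1WT/WT mice with traction, where Kit was lower. The part of melanocytes in the level of Kit was not tested.

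Over the members, 1 of the 9 (Hdc) rose and 1 (Ms4a2) fell with traction in Tem1WT/WT mice, where 5.61% of the genes tested were called higher and 3.54% lower, 9.15% in all. Upper quartile scaling, which made 734 of 1673 called genes higher in place of 1057 of 1725, kept both of these calls. The same 2 were the members whose libraries did not overlap, as held for 17.7% of genes in the higher and 18% in the lower direction. The median log2 fold change of the 9 was 0.16, against −0.01 over all genes tested, and it was −0.42 without replicate 1 of Tem1WT/WT traction. Without that library Cma1 stood at −0.65, Mcpt4 at −0.68, Cpa3 at −0.80, Kit at 0.0045 and Fcer1a at 0.12, with adjusted p from 0.158 to 0.993 (edgeR). The calls depended on single libraries: 0 members were called without replicate 1 of Tem1WT/WT traction, when 1.86% of genes were, and 0 without any 1 of the Tem1WT/WT sham replicates (Hdc adjusted p = 0.135, 0.105 and 0.0638 and Ms4a2 adjusted p = 0.133, 0.0894 and 0.0637 without sham replicates 1, 2 and 3). Over the whole series 0 of 19308 and 0 of 19411 genes were called without sham replicates 1 and 2, and 820 of 19436 without sham replicate 3. Without replicate 2 of Tem1WT/WT traction both were called (adjusted p = 0.00953 and 0.0193), as were 2861 of 19400 genes. Without replicate 3 of that group Hdc alone was called (adjusted p = 0.0365), with Ms4a2 at −1.02 (adjusted p = 0.0716), and 704 of 19430 genes were called.

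Among Tem1lacZ/lacZ mice all 9 estimates for traction were above 0, from 0.30 for Cma1 to 1.14 for Hdc, with a median of 0.38 against −0.01 over all genes. The members' log2 fold changes were 0.38 for Kit (SE 0.22, adjusted p = 0.655 in edgeR) and otherwise as given above. With edgeR 0 of the 9 were called, as for 0% of all genes, and 1 (Fcer1a) had an unadjusted p under 0.05, as 8.12% of genes did. DESeq2 and limma-voom also called 0. Hdc, Ms4a2 and Fcer1a did not overlap between sham and traction and were higher with traction, as held for 6.77% of genes.

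**Figure D4:**
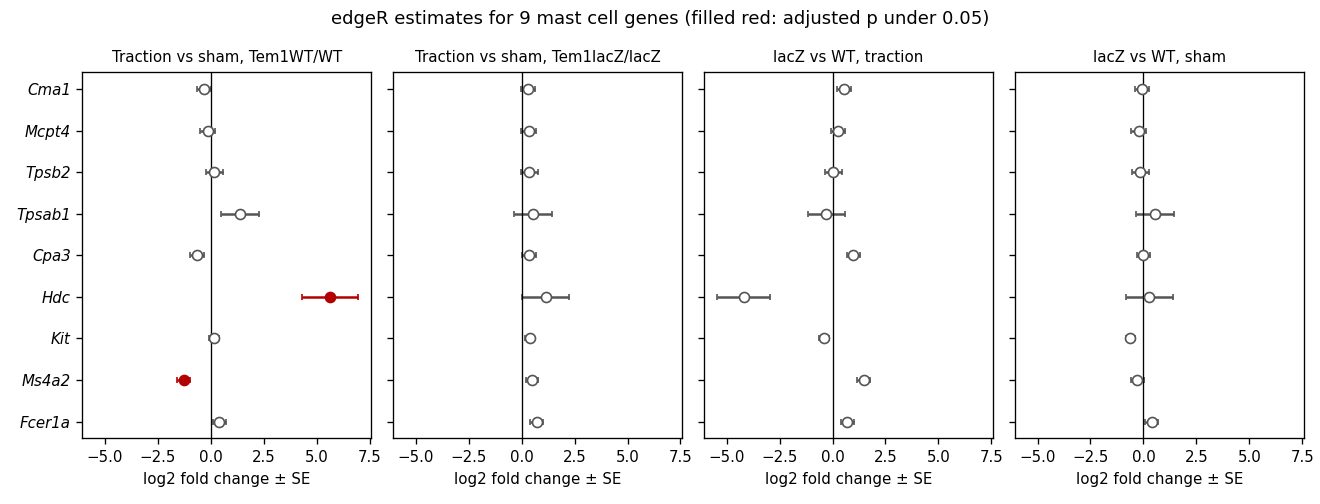
Log2 fold change of the 9 genes (horizontal axis, with SE) in 4 comparisons from edgeR; filled red points have an adjusted p under 0.05. Hdc at 5.63 and Ms4a2 at −1.28 are the called members, both for traction in Tem1WT/WT mice, and all 9 points lie above 0 for traction in Tem1lacZ/lacZ mice.

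Between the genotypes with traction, edgeR called 0 members, where 0.106% of all genes were called. An unadjusted p under 0.05 was found for 3 (Ms4a2, Hdc and Cpa3) and for 26.1% of genes. These were the 3 that DESeq2's Wald test called, which called 2334 of 18853 genes here, and limma-voom called 0. Ms4a2 and Cpa3 were higher in Tem1lacZ/lacZ mice without overlap, as 12.9% of genes were, and Kit was lower without overlap, as 13.7% were. Hdc had a log2 fold change of −4.20 (SE 1.24, adjusted p = 0.0982), which was −0.64 (adjusted p = 0.476) without replicate 1 of Tem1WT/WT traction. Without replicate 2 of that group, Hdc at −4.77 (adjusted p = 0.0262) and Ms4a2 at 1.72 (adjusted p = 0.0225) were called, as were 1421 of 19400 genes. The remaining members had log2 fold changes of 0.69 for Fcer1a (SE 0.32, adjusted p = 0.193), 0.54 for Cma1 (SE 0.34), 0.26 for Mcpt4 (SE 0.35), 0.04 for Tpsb2 (SE 0.40) and −0.30 for Tpsab1 (SE 0.87).

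In the sham groups edgeR called 0 members, where 0.0106% of all genes were called, and DESeq2 and limma-voom called 0 as well. Kit was the 1 member with an unadjusted p under 0.05, which 11.7% of genes had. Besides Kit, which was lower without overlap as 13.8% of genes were, Fcer1a was higher in every Tem1lacZ/lacZ library, as 13% of genes were, with a log2 fold change of 0.39 (SE 0.32, adjusted p = 0.627). The log2 fold changes of the proteases were 0.00 for Cpa3 (SE 0.32), −0.07 for Cma1 (SE 0.34), −0.15 for Tpsb2 (SE 0.40), −0.22 for Mcpt4 (SE 0.35) and 0.56 for Tpsab1 (SE 0.90). Ms4a2 stood at −0.28 (SE 0.30) and Hdc at 0.28 (SE 1.11).

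The response to traction was compared between the genotypes by the interaction term. edgeR called 0 members and 0% of all genes. Ms4a2 had an interaction of 1.76 on the log2 scale (SE 0.43, unadjusted p = 0.00171 and adjusted p = 0.548 in edgeR) and Hdc of −4.49 (SE 1.62, adjusted p = 0.548), and these 2 had an unadjusted p under 0.05, as 8.91% of genes did. Cpa3 had 0.99 (SE 0.46, adjusted p = 0.555). The other 6 members lay between −0.86 and 0.61. Of the members DESeq2 called Ms4a2 alone, with 69 of 18853 genes called in all, and limma-voom called 0. Averaged over both treatments, the genotypes differed in 0 members with edgeR, where 0.053% of all genes were called, and 4 members had an unadjusted p under 0.05, as 28.4% of genes did: Kit, Ms4a2 at 0.59 (SE 0.21, adjusted p = 0.108), Hdc at −1.96 (SE 0.80, adjusted p = 0.142) and Fcer1a at 0.54 (SE 0.22, adjusted p = 0.144). DESeq2 called Kit and Ms4a2 here, where it called 2993 of 18853 genes, and limma-voom called 0.

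The members followed each other unevenly over the 12 libraries, as a description. On log2 CPM, r was 0.919 between Cma1 and Mcpt4, 0.905 between Mcpt4 and Tpsb2 and 0.868 between Cma1 and Cpa3. Ms4a2 followed Cpa3 (r = 0.861) more closely than Tpsb2 (r = 0.211), and Kit was at −0.39 with Cpa3 and 0.12 with Mcpt4. The 8 genes outside the list whose pattern was most like the mean of the standardized members were Gm15337, Sele, Ccr2, Ttll8, Palb2, Cd200r3, Tph1 and Pyhin1, with r from 0.881 to 0.815. All libraries share groups, and no p was computed.

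Of 29 further mast cell genes tested, 3 rose and 2 fell with traction in Tem1WT/WT mice, where 5.61% of all genes were called higher and 3.54% lower. The 2 that fell were Mrgprb2, the receptor for basic secretagogues on connective tissue mast cells, and Mitf, a transcription factor of mast cells and melanocytes. Mrgprb2 was 2.37, 1.39 and 2.05 CPM in sham and 0.190, 0.707 and 0.925 CPM with traction, with no overlap and a log2 fold change of −1.66 (SE 0.47, adjusted p = 0.0494 in edgeR). Mrgprb2 in Tem1lacZ/lacZ mice was 1.83, 1.68 and 2.38 CPM in sham and 1.21, 1.41 and 1.62 CPM with traction, also without overlap, with a log2 fold change of −0.48 (SE 0.45, adjusted p = 0.780). Mitf was 66.0 to 76.6 CPM in Tem1WT/WT sham and 34.8 to 56.7 CPM in Tem1WT/WT traction (log2 fold change −0.72, SE 0.19, adjusted p = 0.0431), and 36.0 to 43.7 CPM in Tem1lacZ/lacZ sham.

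**Figure D5:**
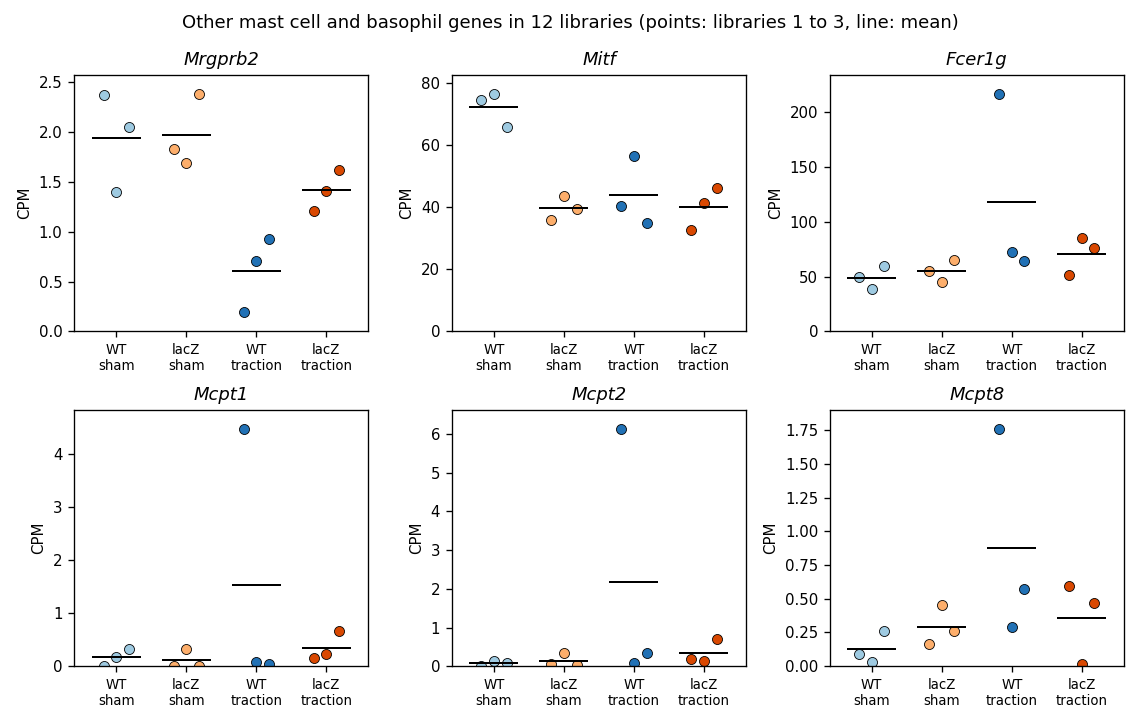
CPM (vertical axes from 0) of Mrgprb2, Mitf, Fcer1g, the mucosal mast cell proteases Mcpt1 and Mcpt2, and the basophil protease Mcpt8 in the 12 libraries (points, replicates 1 to 3 from left to right) with group means (lines). Mrgprb2 lies at 0.190 to 0.925 CPM in Tem1WT/WT traction and at 1.21 CPM or more elsewhere, and Mcpt1 and Mcpt2 stand at 4.47 and 6.14 CPM in replicate 1 of that group.

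The 3 that rose were Srgn, Csf2rb and Cd63, which many leukocytes and other cells also express. Srgn, the granule proteoglycan core, had a log2 fold change of 3.81 (SE 0.96, adjusted p = 0.0396), Csf2rb, the shared receptor chain for interleukin-3, of 3.21 (SE 0.84, adjusted p = 0.0428), and Cd63, a granule membrane tetraspanin, of 0.96 (SE 0.20, adjusted p = 0.0300). Without replicate 1 of Tem1WT/WT traction, 0 of the 29 genes were called, where 1.86% of all genes were. Srgn then stood at 1.32, Csf2rb at 1.10, Cd63 at 0.96, Mrgprb2 at −1.26 and Mitf at −0.68, with adjusted p from 0.0509 to 0.0983.

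In the pathways around the members, calls for traction in Tem1WT/WT mice were all upward, the direction called for 5.61% of all genes. Of 18 genes of IgE receptor signalling, 4 rose: Lyn at 1.45, Inpp5d at 1.55, Vav1 at 1.60 and Grb2 at 0.91 (log2 fold changes). All 18 estimates were above 0, with a median of 0.92, and neutrophils and other leukocytes express these genes too. With replicate 1 of Tem1WT/WT traction left out, Lyn stood at 0.82, Inpp5d at 1.079, Vav1 at 1.09 and Grb2 at 0.65, and the median was 0.53. Of 15 genes of Kit signalling 3 rose, the adaptor Shc1 at 0.74, the transcription factor Ets1 at 1.23 and the cell death gene Bcl2l11 at 1.85. Of 13 factors that feed or activate mast cells 2 rose, Tgfb1 at 1.68 and Il6 at 3.92. Among them Kitl, the ligand of Kit, had a log2 fold change of −0.51 (SE 0.25, adjusted p = 0.187) and Il33 one of 1.67 (SE 0.50, adjusted p = 0.0591). Without that library Shc1 stood at 0.65, Ets1 at 0.96, Bcl2l11 at 1.37, Tgfb1 at 1.11, Il6 at 3.30, Il33 at 1.28 and Kitl at −0.37.

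Of 5 genes for histamine receptors and breakdown, Hrh2, the H2 receptor, rose. It was 1.41, 0.870 and 1.10 CPM in Tem1WT/WT sham and 13.0, 9.41 and 1.71 CPM in Tem1WT/WT traction, and its log2 fold change was 2.84 (SE 0.59, adjusted p = 0.0305 in edgeR). Without replicate 1 of Tem1WT/WT traction, Hrh2 stood at 2.30 (adjusted p = 0.0552) and the calls in these 4 lists fell to Bcl2l11 alone. Without replicate 1 or replicate 2 of Tem1WT/WT sham 0 genes of the whole series were called, those of the 5 lists included. In Tem1lacZ/lacZ mice with traction, between the genotypes within each treatment and for the interaction, 0 genes of the 5 lists were called by edgeR. The other tools were not counted for these lists. Between the genotypes with traction, 26.1% of all genes had an unadjusted p under 0.05. So did 10 of 29 further mast cell genes, 9 of 18 for IgE receptor signalling and 7 of 15 for Kit signalling. It held for 6 of 13 factors and 1 of 5 histamine genes. For traction in Tem1lacZ/lacZ mice, between the genotypes in sham and for the interaction, each list had 0 to 6. IgE receptor and Kit signalling had 6 of 18 and 5 of 15 for traction in Tem1lacZ/lacZ mice. The shares over all genes were 8.12% for that comparison, 11.7% between the genotypes in sham and 8.91% for the interaction.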

How the data were processed

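RNA of mouse scars was sequenced as TruSeq stranded libraries in paired reads of 150 bases, with 12 libraries in 4 groups of 3. The deposited values are raw counts per gene, which the authors made with fastp 0.20.0, HISAT2 2.1.0 on GRCm38 (mm10) and featureCounts 2.0.0. The annotation, strand setting and handling of reads with several matches are not given in the sources used here. Library totals were 41536788 to 64644293 counts.

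Counts were filtered by group, scaled by TMM and tested with edgeR 4.0.16 (R 4.3.3) by the quasi-likelihood test, in 1 model of 4 groups with 8 residual degrees of freedom, and adjusted by Benjamini-Hochberg over 18853 genes. The biological coefficient of variation was 34.2%. Alternatives were DESeq2 1.42.0, limma-voom (limma 3.58.1), other filters and scalings, a replicate block, only the 6 libraries compared, and each library left out. On simulated data with 200 genes changed by 2 on the log2 scale for traction in Tem1WT/WT mice, edgeR recovered 70.5% with 5 false calls among 18511 genes, limma-voom 71.5% with 7 and DESeq2 86.5% with 52. The changed genes excluded those with low counts, and no simulated library was set apart as replicate 1 of Tem1WT/WT traction is. These rates therefore do not show how far the calls of Hdc and Ms4a2 can be trusted. Exon lengths came from GENCODE vM21 and promoters from RefSeq (GRCm38.p6).

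Members and lists were chosen with earlier results of these data known. All 9 members were to be named in every comparison. After the values were seen, single values were limited to the members with the larger differences in the interaction and in the averaged comparisons, and the others are given there by counts or ranges. Nothing in the labels ties a library to a litter or a day.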

Additional observations from a re-analysis of the deposited data

Results flagged for a closer look

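Ms4a2 had an interaction term of 1.76 on the log2 scale, with an unadjusted p of 0.00171 in edgeR. An unadjusted p under 0.05 was found for 8.91% of all genes. The gene fell in Tem1WT/WT mice and was higher with traction in Tem1lacZ/lacZ mice, and neither pair of groups overlapped. The adjusted p over all genes was 0.548, so the difference fails the correction. DESeq2's Wald test gave 1.75 with an adjusted p of 0.0217, and it was the 1 of 19 alternatives that called Ms4a2. Without replicate 1 of Tem1WT/WT traction edgeR gave 1.85 with an adjusted p of 0.558.

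Hdc had an interaction term of −4.49, with an unadjusted p of 0.0185 and an adjusted p of 0.548 in edgeR, which also fails the correction. It was −0.90 with an adjusted p of 0.765 without replicate 1 of Tem1WT/WT traction, the library with the highest neutrophil genes. The part of neutrophils in this difference was not tested.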

How the results depend on the processing

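Of 728 log2 fold changes of members recomputed under alternatives, 667 kept their direction and their side of the threshold. The sign changed in 24, a call was lost in 27 and a call was gained in 10. Counts of calls are not among the 728. For traction in Tem1WT/WT mice, edgeR called 2 members, and 1 (Ms4a2) with all genes of at least 1 count, 0 with limma-voom, 0 with only the 6 libraries compared, and 0 to 2 with a library left out. The replicate block gave 0 members, with Hdc at 4.98 (adjusted p = 0.0719) and Ms4a2 at −1.27 (adjusted p = 0.0502). After each gene's group mean was subtracted, same-numbered libraries of different groups correlated at −0.32 to 0.25 (median 0.09, 18 pairs). Differently numbered libraries of different groups correlated at −0.40 to 0.37 (median −0.02, 36 pairs), and the numbers were not taken as pairs. Between the genotypes with traction, DESeq2 called 3 members in place of 0, and leaving out a library gave 0 to 2. For the interaction DESeq2 called 1 (Ms4a2) in place of 0, and for the averaged genotype difference 2 (Kit and Ms4a2) in place of 0. For averaged traction, the call of Hdc gave way to 0 with all genes of at least 1 count and 0 with the replicate block, limma-voom called Fcer1a in its place (adjusted p = 0.0478), and leaving out a library gave 0 to 2. The causes were not tested.

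Log2 fold changes near 0 changed sign. With limma-voom, Tpsb2 was −0.15 for traction in Tem1WT/WT mice, Tpsab1 was 0.22 between genotypes with traction, and in sham Cma1 was 0.11 and Tpsb2 0.028. Cpa3 in sham was −0.027 with all genes of at least 1 count, −0.0057 with DESeq2 size factors and −0.0057 with DESeq2. Leaving out a library gave −0.68 to 0.11 for Mcpt4 and −0.42 to 0.40 for Tpsb2 with traction in Tem1WT/WT mice, and −0.18 to 0.63 for Tpsb2 and −0.68 to 0.94 for Tpsab1 between genotypes with traction. In sham it gave −0.39 to 0.20 for Cma1, −0.49 to 0.092 for Tpsb2, −1.03 to 1.00 for Tpsab1 and −0.26 to 0.29 for Cpa3.

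Over all genes, traction in Tem1WT/WT mice gave 1725 calls with edgeR, 1011 with all genes of at least 1 count, 4047 with DESeq2, 735 with limma-voom and 0 with only the 6 libraries. The averaged genotype difference gave 10 with edgeR and 2993 with DESeq2. The genotypes with traction gave 20 calls with edgeR, 2334 with DESeq2 and 0 with only the 6 libraries. Traction in Tem1lacZ/lacZ mice gave 0 with edgeR, 28 with DESeq2 and 377 with limma-voom, and the interaction gave 0 with edgeR and 69 with DESeq2. Upper quartile scaling moved the median of all genes to −0.12 and 0.14 for traction in Tem1WT/WT mice and for the genotypes with traction. Tpsab1, with as few as 4 counts in a library, could not be tested where 10 counts in every library were required.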
